A study of Mus musculus with 6 samples.

Results

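The YAP and TAZ pathway with its CCN targets was described here through 8 genes in adipose tissue of mouse offspring. The genes were Ccn1, Ccn2, Ankrd1 and Amotl2 (target genes), Yap1, Wwtr1 and Tead1 (transcriptional regulators) and Lats2 (an inhibitory kinase that is also a target). Among probe sets that carried its symbol alone in the platform annotation, the one that stands for a gene was chosen by its mean over the 6 arrays, the highest being taken. All 8 were found among the 22180 genes tested, which were not filtered on low values. The height of a level is therefore a description, and the pathway itself was selected with group differences of these data known.

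The chromium restriction group held 3 arrays of offspring whose dams ate a chromium restriction diet, and the control diet group held 3 arrays of offspring of control diet dams. All offspring were 32 weeks old, and 1 array was hybridised per sample with biotin-labelled total RNA of the tissue. The labels used here name no strain, sex, fat depot or diet of the offspring themselves. They do not say that each sample is another animal or litter either, so the p-values cover the spread between these samples, which may be technical. Fabp4, the fatty acid binding protein of adipocytes, was at 13.53 to 13.70 in the chromium restriction arrays and at 13.60 to 13.72 in the controls (log2), and the lipid droplet gene Cidec was at 12.77 to 12.96 in chromium restriction and at 12.95 to 13.09 in controls. Other adipocyte markers differed more between the groups, and their values are given with the markers of other cell types.

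The Hippo pathway restrains organ growth and reads mechanical tension, cell contact and serum factors. Its kinases MST and LATS phosphorylate the coactivators YAP (Yap1) and TAZ (Wwtr1) and so hold them in the cytoplasm; once free of this mark, both enter the nucleus, bind TEAD factors at DNA and switch on targets such as Ccn1 and Ccn2, which encode secreted matricellular proteins. In the adipose lineage TAZ is known to bind PPAR gamma and to restrain adipocyte differentiation. Regulation of YAP and TAZ lies largely in phosphorylation and location, which an RNA array does not measure.

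The promoters of 3 target genes are shown because TEAD binding sites link these genes to YAP and TAZ. The sequences are the 250 bases before the start in the RefSeq promoter table (GRCm38.p6), read 5′ to 3′ on the gene's strand, and capitals mark the TEAD core GGAATG or its reverse complement CATTCC.
Ccn1, chr3:145649986-145650235, minus strand: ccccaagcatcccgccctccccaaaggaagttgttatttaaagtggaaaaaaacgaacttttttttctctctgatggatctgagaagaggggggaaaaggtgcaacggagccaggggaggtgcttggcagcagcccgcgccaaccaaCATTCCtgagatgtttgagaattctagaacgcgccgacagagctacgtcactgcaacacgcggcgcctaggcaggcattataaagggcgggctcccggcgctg
Ankrd1, chr19:36119845-36120094, minus strand: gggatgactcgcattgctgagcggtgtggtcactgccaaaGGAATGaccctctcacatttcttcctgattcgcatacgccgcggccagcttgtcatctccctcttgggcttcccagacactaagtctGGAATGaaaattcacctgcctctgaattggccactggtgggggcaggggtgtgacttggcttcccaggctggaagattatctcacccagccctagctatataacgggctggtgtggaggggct
Amotl2, chr9:102717554-102717803, plus strand: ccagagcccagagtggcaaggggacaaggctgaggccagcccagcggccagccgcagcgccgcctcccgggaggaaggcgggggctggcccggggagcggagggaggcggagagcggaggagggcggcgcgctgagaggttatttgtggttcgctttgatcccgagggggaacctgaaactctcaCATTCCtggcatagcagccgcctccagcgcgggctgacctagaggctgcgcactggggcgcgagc
The core began 103 bases before the start in Ccn1, 210 and 123 bases before it in Ankrd1, and 65 bases before it in Amotl2. Ccn1 also held the letters TATAAA, 25 bases before the start.

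Of the 8 genes, 6 had a promoter in the table, and the TEAD core was present in 5 of them, among them Yap1 (141 bases before the start) and Wwtr1 (136 or 170 bases, for its 2 listed starts). Lats2 held no match in this window at either listed start, and Ccn2 and Tead1 are named only. The core, searched on both strands, was present in 14.4% of all 27025 genes with a promoter in the table. In the list of other YAP and TAZ targets it was present in 4 of 13 genes, namely Ajuba, Axl, Crim1 and Ptpn14. Other lists held it in 6 of 20 Hippo kinases and adaptors, 3 of 5 other TEAD factors and cofactors, and 2 of 12 early response genes. It was also present in 6 of 12 targets of serum response factor, in 0 of 6 TGF-beta genes and in 0 of 1 other CCN gene. No member's window held the AP-1 letters TGANTCA or a CArG box, the site of serum response factor (both strands), which 6.75% and 1.47% of all 32851 promoters held. A match is a description of letters and not evidence of binding.

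Over the 8 members, 0 passed an adjusted p of 0.05 in limma, where 0.194% of all genes did (43 of 22180). At an unadjusted p under 0.05 there were 3 members, Ccn1, Ccn2 and Ankrd1, and all 3 were higher in chromium restriction; 2.42% of all genes were higher at this threshold. In the same 3 genes each chromium restriction array lay above every control array, a pattern that 3.53% of all genes showed in this direction. The other 5 members overlapped between the groups. The median log2 difference was 0.19 over the 8 members and -0.018 over all genes.

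**Figure D1:**
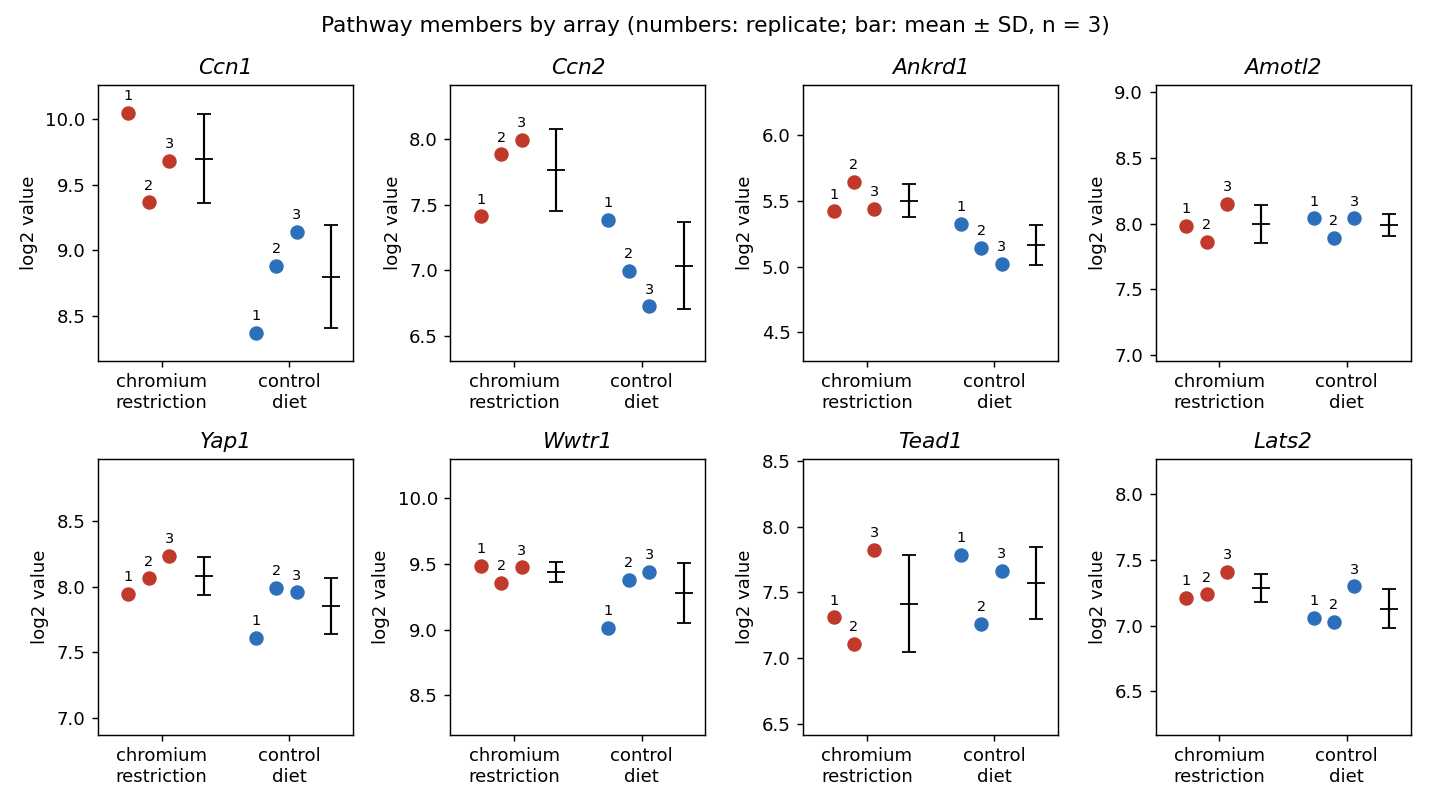
Log2 value of each of the 8 genes on each array, chromium restriction on the left (red) and control diet on the right (blue), with the replicate number above each point and the mean ± SD (n = 3) beside each group; all panels span the same height. Ccn1, Ccn2 and Ankrd1 do not overlap between the groups, while Amotl2, Yap1, Wwtr1, Tead1 and Lats2 do.

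Ccn1 encodes CYR61, a secreted integrin ligand that is also an immediate early gene. It was at 10.05, 9.37 and 9.68 in replicates 1, 2 and 3 of chromium restriction, against 8.37, 8.88 and 9.14 in control replicates 1, 2 and 3 (log2). The lowest chromium restriction array lay 0.22 above the highest control. The means were 9.70 ± 0.34 in chromium restriction and 8.80 ± 0.39 in controls (SD, n = 3), a log2 difference of 0.90 ± 0.25 (SE), or 1.87-fold with a 95% confidence interval of 1.23 to 2.83. The adjusted p in limma was 0.707, so the gene did not pass over all genes; it ranked 315 of 22180 by p.

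Ccn2 encodes CTGF, a matricellular protein of fibrosis that TGF-beta also induces. It was at 7.41, 7.89 and 7.997 in replicates 1, 2 and 3 of chromium restriction, against 7.39, 6.998 and 6.73 in control replicates 1, 2 and 3. The groups were separated by 0.026, between chromium restriction replicate 1 and control replicate 1. The means were 7.77 ± 0.31 in chromium restriction and 7.04 ± 0.33 in controls (SD, n = 3), 1.66-fold higher with a 95% confidence interval of 1.15 to 2.39 (limma adjusted p = 0.751). A second, dimmer Ccn2 probe set was at 5.58, 5.33 and 5.18 in chromium restriction and at 5.12, 5.54 and 5.12 in controls, with the groups overlapping. Averaged over both probe sets, the log2 difference of Ccn2 was 0.42 ± 0.11 (SE).

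Ccn1 and Ccn2 were not high on the same arrays within a group. Among the chromium restriction arrays replicate 1 had the highest Ccn1 and the lowest Ccn2. Among the controls replicate 1 had the lowest Ccn1 and the highest Ccn2, and replicate 3 the reverse. With 3 arrays per group these orders are a description.

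Ankrd1 encodes CARP, an ankyrin repeat protein of muscle and of cells under mechanical load. It was at 5.42, 5.65 and 5.44 in replicates 1, 2 and 3 of chromium restriction, against 5.33, 5.15 and 5.02 in control replicates 1, 2 and 3. These are dim values: only chromium restriction replicate 2 exceeded the median of all probe sets on its own array (5.47), and among the genes tested Ankrd1 ranked at the 37.2, 45.7 and 40.4 percentiles in chromium restriction and at the 37.3, 29.4 and 28.9 percentiles in controls. The log2 difference was 0.34 ± 0.11 (SE; limma adjusted p = 0.770), and no fold is given because nothing in the sources states where background lies. Of 10 markers of striated muscle, another tissue that expresses Ankrd1, 5 were higher and 5 lower, and their mean was 5.90 to 6.18 in chromium restriction and 5.99 to 6.06 in controls.

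Amotl2 encodes an angiomotin-like scaffold that binds YAP at cell junctions and is itself a YAP target. It was at 7.98, 7.86 and 8.15 in replicates 1, 2 and 3 of chromium restriction, against 8.04, 7.89 and 8.04 in control replicates 1, 2 and 3. The groups overlapped, and the difference was 0.0069 ± 0.099 (SE), with a 95% confidence interval of -0.23 to 0.25 on the log2 scale. On the fold scale the interval ran from 0.85 to 1.19 (limma adjusted p = 0.997).

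Lats2, the kinase that phosphorylates YAP and TAZ and is induced by them in a feedback loop, was at 7.21, 7.24 and 7.41 in chromium restriction and at 7.06, 7.03 and 7.30 in controls. Control replicate 3 lay above chromium restriction replicates 1 and 2. The difference was 0.16 ± 0.10 (SE), with a 95% confidence interval of -0.10 to 0.41 (limma adjusted p = 0.915).

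The coactivators and the DNA-binding partner Tead1 overlapped between groups. Yap1 was at 7.94, 8.06 and 8.24 in chromium restriction and at 7.61, 7.99 and 7.96 in controls, a log2 difference of 0.23 ± 0.13 (SE; limma adjusted p = 0.888). Control replicate 1 was the low array, and the other control arrays lay above chromium restriction replicate 1. A second Yap1 probe set, at 4.60 to 4.69 in chromium restriction and 4.64 to 4.68 in controls, was below the lower quartile of every array (4.75 to 4.82).

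Wwtr1, which encodes TAZ, was at 9.49, 9.35 and 9.47 in chromium restriction and at 9.01, 9.38 and 9.44 in controls. Here too control replicate 1 was low, and the other 5 arrays lay between 9.35 and 9.49. The difference was 0.16 ± 0.13 (SE), with a 95% confidence interval of -0.15 to 0.47 (limma adjusted p = 0.945).

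Tead1, a TEAD factor through which YAP and TAZ reach DNA, was at 7.31, 7.11 and 7.82 in chromium restriction and at 7.79, 7.26 and 7.67 in controls. It was the only one of the 8 genes with a lower mean in chromium restriction, and each group held both high and low arrays. The difference was -0.16 ± 0.22 (SE), with a 95% confidence interval of -0.69 to 0.38 (limma adjusted p = 0.988).

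RNA of other tissues and cell types varied between the arrays. The 7 liver markers, among them Alb, averaged 11.33, 6.55 and 10.90 in replicates 1, 2 and 3 of chromium restriction and 6.56 to 6.94 in controls. The intestinal markers, 10 in all, averaged 6.46 in chromium restriction replicate 2, 5.48 and 5.53 in the other chromium restriction arrays, and 5.15 to 5.33 in controls. The 12 mesothelial markers averaged 7.21 to 7.38 in chromium restriction and 6.37, 7.36 and 7.60 in control replicates 1, 2 and 3. The 8 smooth muscle markers averaged 7.36, 8.35 and 9.02 in replicates 1, 2 and 3 of chromium restriction and 8.73, 7.71 and 7.12 in control replicates 1, 2 and 3. Markers of endothelial cells, a cell type rich in YAP and TAZ, averaged 8.60 to 8.75 in chromium restriction and 8.46 to 8.82 in controls, with 0 of 12 at an unadjusted p under 0.05. Fibroblast markers averaged 9.39 to 9.81 in chromium restriction and 9.56 to 9.92 in controls, with 0 of 10. The 11 adipocyte markers averaged 11.66 to 11.93 in chromium restriction and 11.87 to 11.997 in controls, and 10 of them had lower means in chromium restriction. Pparg, the master regulator of adipocyte differentiation, was listed at 12.50, 12.35 and 12.38 in chromium restriction against 10.47, 10.43 and 10.39 in controls (limma adjusted p = 0.00084). Adipoq, the adipocyte hormone adiponectin, was listed at 10.67, 10.41 and 10.54 in chromium restriction against 11.73, 11.79 and 11.75 in controls (limma adjusted p = 0.0050). Both lie in rows where some values carry more digits than the rest of the table. Pnpla2, a triglyceride lipase in a row without such digits, was at 12.0002, 12.28 and 12.35 in chromium restriction and at 12.54, 12.52 and 12.63 in controls, lower without overlap (limma adjusted p = 0.760). In whole tissue, more cells of a type and more RNA per cell cannot be told apart, and with no stated background no marker can be called absent.

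Ccn1 was highest on the arrays rich in liver transcripts. Of the 7 liver markers, 7 were higher in chromium restriction by group mean, and chromium restriction replicates 1 and 3, which had the highest liver means, also had the highest Ccn1. Chromium restriction replicate 2, with a liver mean of 6.55, had Ccn1 at 9.37, above the highest control (9.14). High liver means occurred only in chromium restriction arrays, and the part of liver RNA in the difference of Ccn1 was not tested further. With the liver mean as a covariate the log2 difference of Ccn1 was 0.55 ± 0.28 (SE; limma adjusted p = 0.99995). Without both arrays, 1 array against 3, it was 0.57 ± 0.31 (SE; limma adjusted p = 0.99996); the spread in this fit comes from the controls, the single array is assumed to vary like them, and it is the array with the most intestinal transcripts. Under neither setting was the unadjusted p of Ccn1 under 0.05. Within each group Ccn1 ran in the order of the liver mean and also in that of the mesothelial mean. The 2 orders were the same, so they cannot be told apart here. In chromium restriction replicates 1 and 3 the mesothelial means were close, at 7.38 and 7.36. With the mesothelial mean as a covariate, a setting chosen after seeing the data, the difference of Ccn1 was 0.77 ± 0.17 (SE; limma adjusted p = 0.883).

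Ccn2 followed the mean of the 8 smooth muscle markers within each group, but not each single marker. Myh11, the smooth muscle myosin heavy chain, was at 7.80, 10.14 and 10.23 in replicates 1, 2 and 3 of chromium restriction, and Ccn2 was lowest, middle and highest on the same arrays. In control replicates 1, 2 and 3 Myh11 was at 10.61, 9.06 and 7.85, and Ccn2 was highest, middle and lowest. Cnn1 and Actg2, of the same markers, also kept this order in each group. Acta2 (11.52, 11.72 and 11.42) and Tagln (8.25, 8.23 and 9.28) departed from it in chromium restriction replicates 1, 2 and 3. Lmod1 departed from it in control replicates 1, 2 and 3 (6.84, 6.04 and 6.13). All 8 smooth muscle markers had higher group means in chromium restriction, 0 of them with an unadjusted p under 0.05 and 0 without overlap. With the smooth muscle mean as a covariate, also chosen after seeing the data, the log2 difference of Ccn2 was 0.58 ± 0.08 (SE), against 0.73 ± 0.22 without it; the adjusted p in limma was 0.254, so no call was made. The part of smooth muscle RNA in the difference of Ccn2 was not tested further.

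**Figure D2:**
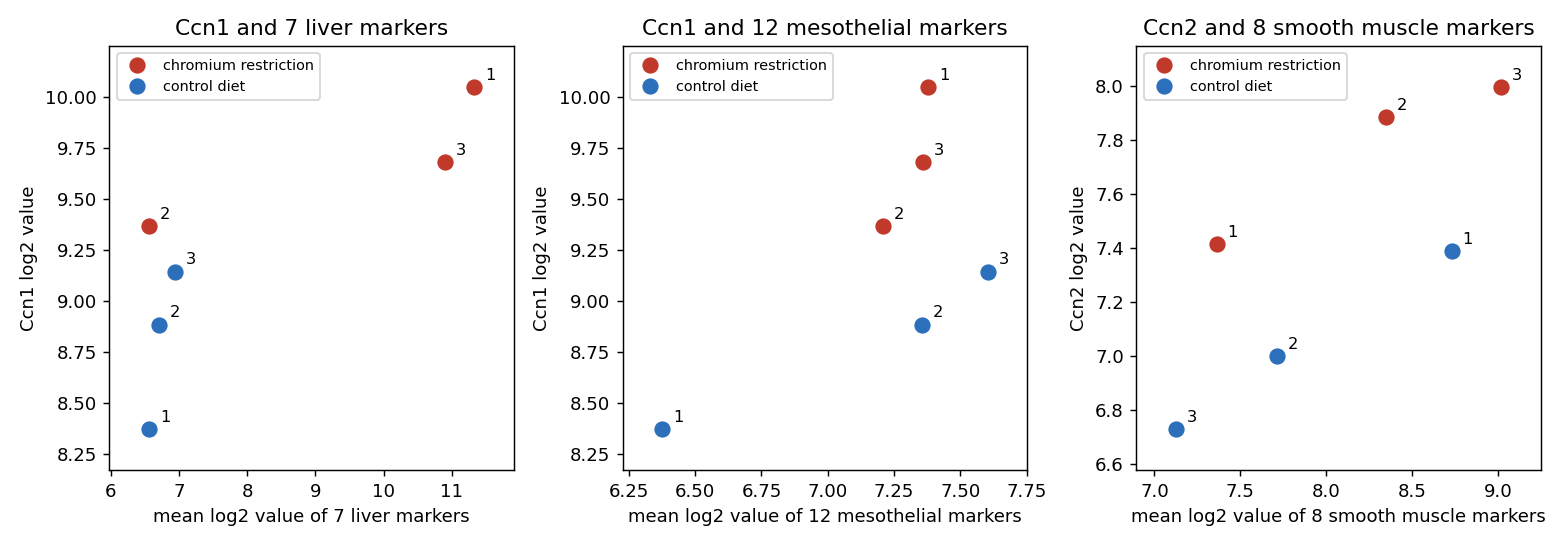
Log2 value of Ccn1 (vertical axis) against the mean log2 value of 7 liver markers (left) and 12 mesothelial markers (middle), and of Ccn2 against 8 smooth muscle markers (right), 1 point per array with its replicate number, chromium restriction in red and control diet in blue. Within each group Ccn2 is ordered like the smooth muscle mean, from 7.41 to 7.997 in chromium restriction and from 6.73 to 7.39 in controls.

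Ankrd1 was higher in chromium restriction under the same settings. Its log2 difference was 0.48 ± 0.14 (SE) with the liver covariate, 0.48 ± 0.16 without the liver-rich arrays, and 0.30 ± 0.11 with the smooth muscle covariate. Ccn2 was at 0.89 ± 0.30 with the liver covariate and 0.85 ± 0.27 without the liver-rich arrays. For Tead1 the same liver settings gave -0.41 ± 0.28 and -0.46 ± 0.23, further from 0 than the -0.16 over all arrays. None of these values passed an adjusted p of 0.05 in limma.

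**Figure D3:**
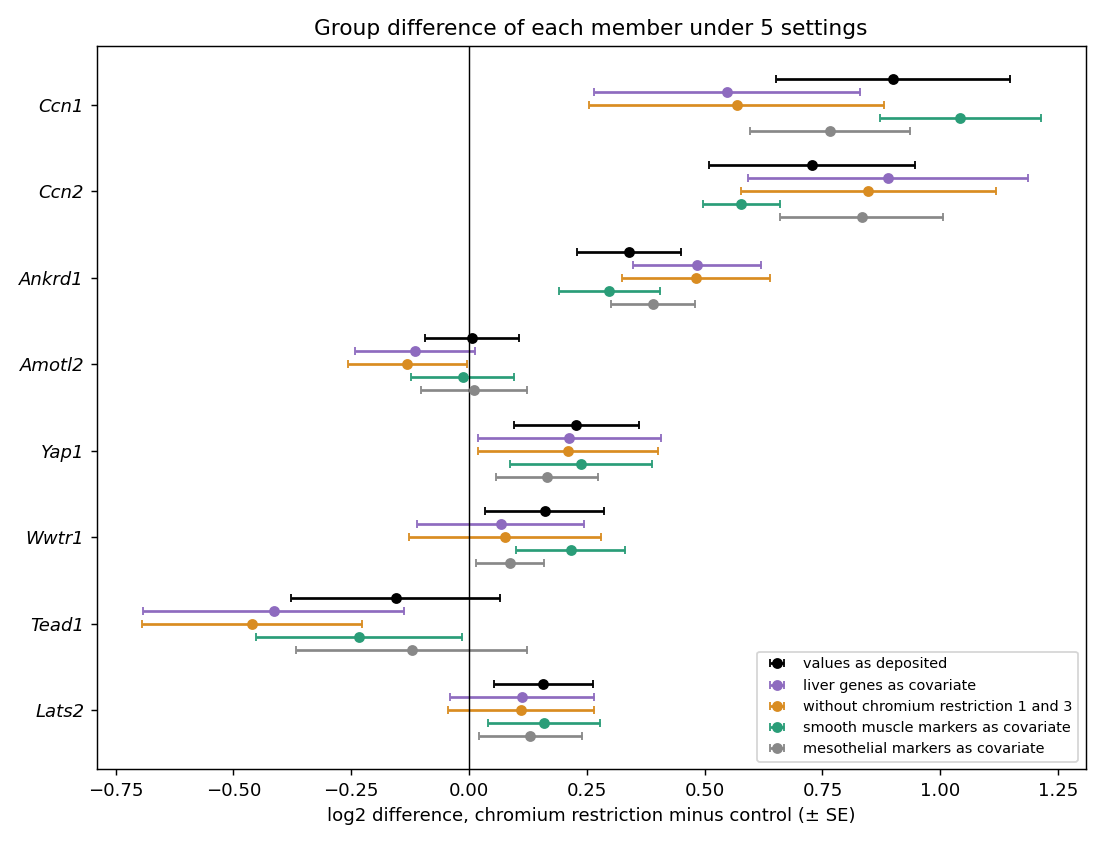
Log2 difference of each gene, chromium restriction minus control diet, with limma's SE as bars, for the values as deposited and for 4 other settings shown by colour. Ccn1, Ccn2 and Ankrd1 lie above 0 under all 5 settings, Ccn1 between 0.55 and 1.04, while Amotl2 lies on both sides of 0.

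Of 25 listed Hippo kinases, adaptors and junction proteins upstream in the pathway 21 were measured, 12 higher and 9 lower, where 9576 of all 22180 genes were higher. Their median log2 difference was 0.033, and it ran from -0.048 without chromium restriction replicate 3 to 0.093 without chromium restriction replicate 1. In 5 of them, Taok3, Dchs1, Map4k4, Stk4 and Amot, every chromium restriction array lay above every control, and in 0 the reverse held, beside 3.53% and 6.06% of all genes. Taok3, a TAO kinase, from a family that acts on MST, was the 1 gene past the adjusted threshold, listed at 8.10, 8.21 and 8.18 in chromium restriction against 7.22, 7.12 and 7.43 in controls (adjusted p = 0.0407 in limma). Of its 6 values 3 carry more digits than the rest of the table, as did 183 values in 64 probe sets, and nothing in the sources says how such rows were made; with those rows left out, 0 genes of any kind passed. Dchs1, a protocadherin upstream of the kinases, was at 6.25 ± 0.12 in chromium restriction and 6.01 ± 0.07 in controls (SD, n = 3; limma adjusted p = 0.817). Map4k4, a kinase that acts beside MST on LATS, differed by 0.20 ± 0.08 and Stk4, which encodes MST1, by 0.21 ± 0.10 (SE). The other LATS kinase, Lats1, differed by -0.18 ± 0.14 (SE).

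Among the other TEAD factors and TEAD cofactors 4 of 6 were higher and 0 had an unadjusted p under 0.05. Vgll3, a vestigial-like cofactor that binds TEAD in place of YAP, was at 8.74, 7.62 and 8.94 in chromium restriction against 7.79, 7.44 and 7.64 in controls. Its high values fell on the 2 liver-rich arrays, and the groups overlapped (0.81 ± 0.34, SE; limma adjusted p = 0.817). Tead2, Tead4 and Vgll4 differed by 0.06 to 0.13, each within 1 SE of 0. Of these only Tead2 did not overlap between the groups, at 5.72 to 5.76 in chromium restriction and 5.64 to 5.70 in controls. Over all genes 3.53% were higher without overlap.

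Of 20 other YAP and TAZ targets listed, 18 were measured, 10 higher and 8 lower, with a median of 0.017 beside -0.018 over all genes. The median was 0.098 without chromium restriction replicate 1, 0.077 without control replicate 3 and -0.011 without control replicate 2. At an unadjusted p under 0.05 there was 1 gene, where 5.95% of all genes passed in either direction. That gene was Crim1, which encodes a membrane protein that binds bone morphogenetic proteins, at 10.02, 9.63 and 10.21 in chromium restriction against 9.54, 9.48 and 9.57 in controls (limma adjusted p = 0.810). Thbs1, which encodes the matricellular protein thrombospondin 1, had the widest difference of the list, 1.41 ± 0.58 (SE). It was at 10.59, 9.35 and 10.97 in chromium restriction against 8.89, 7.97 and 9.82 in controls (limma adjusted p = 0.817). Foxf2, a forkhead factor, differed by -0.12 ± 0.08 and Ajuba, a LIM protein that inhibits LATS, by 0.33 ± 0.21 (SE). Crim1 was the 1 gene of the list that was higher without overlap, and Foxf2 the 1 that was lower without overlap. Over all genes 3.53% were higher and 6.06% lower in this way. Foxf2 was dim, at 5.02 to 5.06 in chromium restriction and 5.09 to 5.27 in controls, below the median of all probe sets on each array. Axl and F3, commonly used targets, differed by -0.06 ± 0.17 and -0.01 ± 0.25 (SE).

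Of the other CCN genes 2 were higher and 2 lower. Ccn5, a family member that lacks the C-terminal cystine knot, was at 7.78, 6.98 and 7.31 in chromium restriction against 7.04, 6.94 and 6.75 in controls, with 1 control above 1 chromium restriction array (limma adjusted p = 0.817). Ccn4 differed by 0.16 ± 0.09, Ccn6 by -0.11 ± 0.07 and Ccn3 by -0.02 ± 0.21 (SE). Of these only Ccn6 did not overlap between the groups, being lower in chromium restriction, as 6.06% of all genes were without overlap. It was dim, at 5.05 to 5.14 in chromium restriction and 5.18 to 5.29 in controls, below the median of all probe sets on each array.

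Ccn1 and Ccn2 are also targets of serum response factor and its MRTF coactivators, which respond to actin. All 14 measured genes of that list had higher means in chromium restriction, where 9576 of all 22180 genes did. Their median was 0.26, which was 0.11 without chromium restriction replicate 3 and 0.16 without control replicate 3. Only Myh9, non-muscle myosin, had an unadjusted p under 0.05 (10.20 ± 0.04 in chromium restriction and 9.94 ± 0.16 in controls, SD, n = 3; limma adjusted p = 0.817). Over all genes 2.42% were higher at this threshold. Actg1, cytoplasmic gamma actin, differed by 0.36 ± 0.16, Acta2, smooth muscle actin, by 0.87 ± 0.44 and Vcl, vinculin, by 0.19 ± 0.10 (SE). The list shares Acta2, Cnn1, Lmod1, Actg2 and Tagln with the 8 smooth muscle markers. With the smooth muscle mean as covariate its median was 0.14. Because that mean contains genes of the list itself, part of this change is built in. The part of smooth muscle RNA in this list was not tested further.

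Early response genes, induced like Ccn1 within minutes of a stimulus, were higher in 12 of 14, with a median of 0.26; 6 were higher and 1 lower at an unadjusted p under 0.05, beside 2.42% and 3.53% of all genes, and 0 passed over all genes. Fos, an AP-1 subunit, was at 8.27, 8.45 and 7.68 in chromium restriction against 6.78, 7.13 and 7.23 in controls (limma adjusted p = 0.522). Dusp1, a MAP kinase phosphatase, differed by 0.56 ± 0.14, and Klf6, a zinc finger factor, by 0.30 ± 0.08 (SE). Ier3, an early gene that modulates cell survival, differed by -0.35 ± 0.10 (SE). Egr1 and Ier2, other genes of the list, differed by 0.02 ± 0.09 and -0.15 ± 0.20 (SE), and both overlapped between the groups. Among genes of the TGF-beta pathway, which induces Ccn2, 7 of 12 were higher. Smad7, its feedback inhibitor, was at 6.23, 5.96 and 6.42 in chromium restriction against 5.86, 5.73 and 5.55 in controls (limma adjusted p = 0.734). Tgfb1, the ligand, differed by 0.22 ± 0.14 and Smad2 by -0.19 ± 0.13 (SE).

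**Figure D4:**
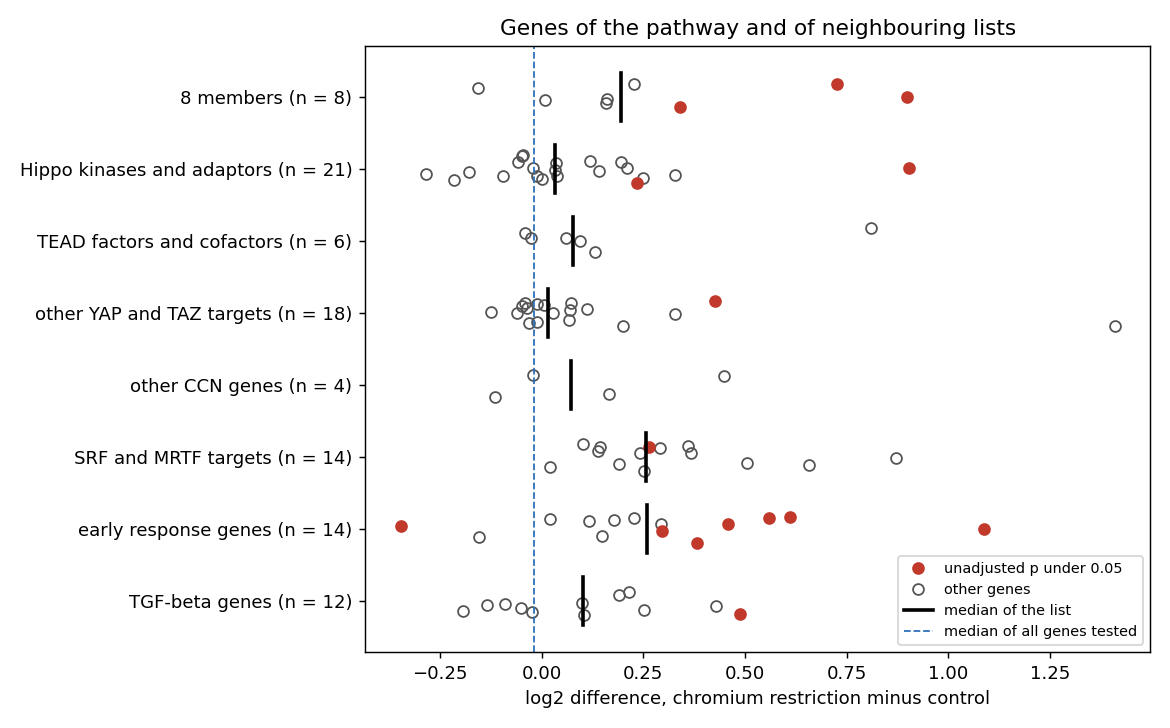
Log2 difference, chromium restriction minus control diet, of each gene (points) in the 8 members and in 7 lists around them; filled red points have an unadjusted limma p under 0.05, black bars are list medians and the dashed line is the median of all genes tested (-0.018). The medians of SRF and MRTF targets and of early response genes lie at 0.26, while that of the other YAP and TAZ targets lies at 0.017.

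The genes most like the targets in level over the 6 arrays were sought among those above the median gene in mean value and free of extra digits. For Ccn1, of 11040 genes, the closest were Bst2, Pfn1, Ppfibp2 and Serping1 (Pearson r of 0.991 to 0.997, n = 6 arrays), and 135 genes had an r of at least 0.9. Bst2, an interferon-induced membrane protein, was at 9.60, 9.31 and 9.44 in chromium restriction and 8.90, 9.11 and 9.26 in controls. For Ccn2 they were Bmp2k, Lrch1, Grwd1 and Neat1 (0.967 to 0.980), with 27 genes at 0.9 or more. For Ankrd1 they were Shroom4, 5031425E22Rik, Arntl and Plxnd1 (0.952 to 0.970), and for Amotl2 Gm10687, Bend7, Bmp3 and Oxld1 (0.973 to 0.993). The 4 closest genes of each target were not shared with another target, which says little for lists this short. The genes with an r of at least 0.9 were not compared between targets. These correlations describe 6 arrays that differ in their content of liver, intestinal, mesothelial and smooth muscle transcripts.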

How the data were processed

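Total RNA of offspring adipose tissue was labelled with biotin and measured on 1-colour arrays, per the labels. The authors deposited log2 values of 33793 probe sets on 6 arrays, already summarised per probe set; the steps behind them are not given in the sources used. The log2 scale was inferred from values between 3.49 and 14.86 with medians of 5.44 to 5.57 per array. No further normalization was applied. Probe sets with 1 gene symbol (23521, beside 1814 with several and 8458 with none) gave 22180 genes, each by its brightest probe set, with no filter on dim genes. Differences were fitted with lmFit and eBayes (limma 3.58.1, R 4.3.3), as two-sided tests of chromium restriction minus control; p-values were adjusted over all genes by Benjamini-Hochberg, and the threshold was 0.05. The script was tested on simulated data. Precision is limited by the small number of arrays.

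The members, gene lists and alternatives were chosen with earlier results of these data known; the smooth muscle and mesothelial covariates were added later. Named genes are the 8 members, up to 4 genes of each pathway list with the smallest p, and the 4 genes most correlated with each of Ccn1, Ccn2, Ankrd1 and Amotl2. Other genes were named after their values were seen. These were Lats1, Axl, F3, Amot, Egr1 and Ier2 and the marker genes (Alb, Fabp4, Cidec, Pparg, Adipoq, Pnpla2, Myh11, Cnn1, Actg2, Tagln and Lmod1). The labels do not say whether equal replicate numbers pair the samples.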

Additional observations from a re-analysis of the deposited data

How the results depend on the processing

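Across 18 alternatives (17 for Ankrd1, which the filter on dim genes removed) the log2 difference of Ccn1 ran from 0.55 to 1.07, that of Ccn2 from 0.42 to 0.90 and that of Ankrd1 from 0.27 to 0.48, always above 0; 0 of the 8 members passed an adjusted p of 0.05 in limma under any of them, with a lowest adjusted p of 0.151 for Ccn1. The number of members at an unadjusted p under 0.05 was 3 over all arrays and 2 to 4 under the alternatives: Ccn1 passed in 16 of 18, not with the liver covariate or without both liver-rich arrays; Ccn2 passed in 17 of 18, not without chromium restriction replicate 3; and Ankrd1 in 14 of 17, not without chromium restriction replicate 2, control replicate 2 or control replicate 3. Leaving out 1 array gave 0.69 to 1.07 for Ccn1, 0.57 to 0.90 for Ccn2 and 0.27 to 0.42 for Ankrd1. Amotl2, at 0.0069, turned to -0.030 with median centring, -0.11 with the liver covariate, -0.13 without both liver-rich arrays and -0.013 with the smooth muscle covariate, and leaving out 1 array gave -0.070 to 0.076; Tead1 turned to 0.027 with array weights. The cause was not tested.

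The count of genes called over all genes was 43. It was 0 with the replicate block, 0 without the rows with extra digits, 6 without both liver-rich arrays, and 24 to 439 when 1 array was left out; the highest count came without chromium restriction replicate 2, the array with intestinal transcripts, and it was 24 without chromium restriction replicate 3 or any 1 control. Chromium restriction replicate 2 was also the only array of its group that was not liver-rich. Its liver mean was 6.55, against 11.33 and 10.90 in chromium restriction replicates 1 and 3 and 6.56 to 6.94 in controls. With it left out, liver-rich arrays alone were compared with the controls. The part of liver or intestinal RNA in the count of 439 was not tested. With the replicate block the difference of Ccn1 was 0.90 ± 0.28 (SE; limma adjusted p = 0.822). Deviations from the group means of arrays with the same number correlated at -0.12, -0.095 and 0.078, and those of the other pairs at -0.22 to 0.28. With so few arrays per group these values cannot decide whether the numbers pair the arrays.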
